A study of Mus musculus with 15 samples.

Results

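Aquaporins are the small membrane channels through which water crosses cells, and the probes of 9 aquaporin genes (Aqp1, Aqp2, Aqp3, Aqp4, Aqp5, Aqp7, Aqp8, Aqp9, and Aqp11) were followed in mouse uterus after a single dose of estrogen. The members were all non-control probes that carry 1 of these gene names on the Agilent Whole Mouse Genome array, 14 probes out of 41174 and 9 gene names out of 27962, and all 14 probes passed the filter on dim probes. The 15 arrays form 5 groups of 3. All mice were ovariectomized females described as adult, 10 weeks or older, that rested for 10 to 14 days and then received 100 μL by intraperitoneal injection. Vehicle mice received saline (with ethanol, by the methods) and were sampled at 24 hr, and the others received 250 ng of estradiol (E2) or of estriol (E3) and were sampled at 2 or 24 hr. The saline, E3, and 24-hr E2 mice were C57bl6/J, whereas the 2-hr E2 mice were C57bl6/Jx129 and are labelled wild type for Esr1. No saline array at 2 hr was analysed here, so the 24-hr saline arrays were the reference at both times, and a difference at 2 hr includes whatever differs between the 2 sampling times. The 2-hr E2 arrays were also on slides, on a scanner, and on a scan day of their own. Treatment, strain, and scan cannot be told apart for that group. The labels describe each uterus as homogenized singly, whereas the methods describe pooled tissue, so the p-values measure the spread between arrays. These are whole-uterus RNA measurements, in which fewer cells of a type and less RNA per cell cannot be told apart. Water content of the tissue was not measured in these files. All 8 genes of a uterine identity list were well above background on every array.

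In the ovariectomized uterus a dose of estrogen brings a fast fluid response of the endometrium within hours and growth of the epithelium within about a day, and water channels are part of how fluid moves between vessels, stroma, epithelium, and lumen. Aqp1, Aqp2, Aqp4, Aqp5, and Aqp8 are mainly water channels, with Aqp1 best known from capillary endothelium and red cells, Aqp2 from the vasopressin-regulated kidney collecting duct, Aqp4 from astrocytes and fast skeletal muscle, Aqp5 from glands and other secretory epithelia, and Aqp8 from liver, pancreas, and gut. Aqp3, Aqp7, and Aqp9 are aquaglyceroporins, which also pass glycerol, and Aqp11 is a divergent member found inside cells. Estriol differs from estradiol by an additional hydroxyl group and is regarded as the weaker and shorter acting estrogen.

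Levels are log2 processed intensities minus the log2 of the 75th percentile of that array, so that 0 is the 75th percentile of the array and a difference of 1 is a 2-fold difference. Levels of different probes were not set against each other. The lowest signal well above background lay between -8.29 and -7.76 over the arrays, and the share of probes well above background ranged from 77.8% to 81.8%. A gene was called when limma gave p below 0.001 and a change of at least 2-fold, and the Benjamini-Hochberg adjusted p over all tested probes is given beside it. Of the 9 genes, 6 were well above background on every array with their brightest probe at a level of -4.01 or more (Aqp1, Aqp2, Aqp3, Aqp5, Aqp8, and Aqp11). The brightest probes of Aqp7 and Aqp9 were also well above background on all 15 arrays, Aqp7 between -7.03 and -4.42 and Aqp9 between -7.51 and -5.34. The other Aqp7 probe was well above background on every array but E3 24-hr replicate 3, at -7.81. Aqp4 was well above background on 3 of 3 saline arrays, but on 2 of 3 E2 and 1 of 3 E3 arrays at 2 hr.

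**Figure D1:**
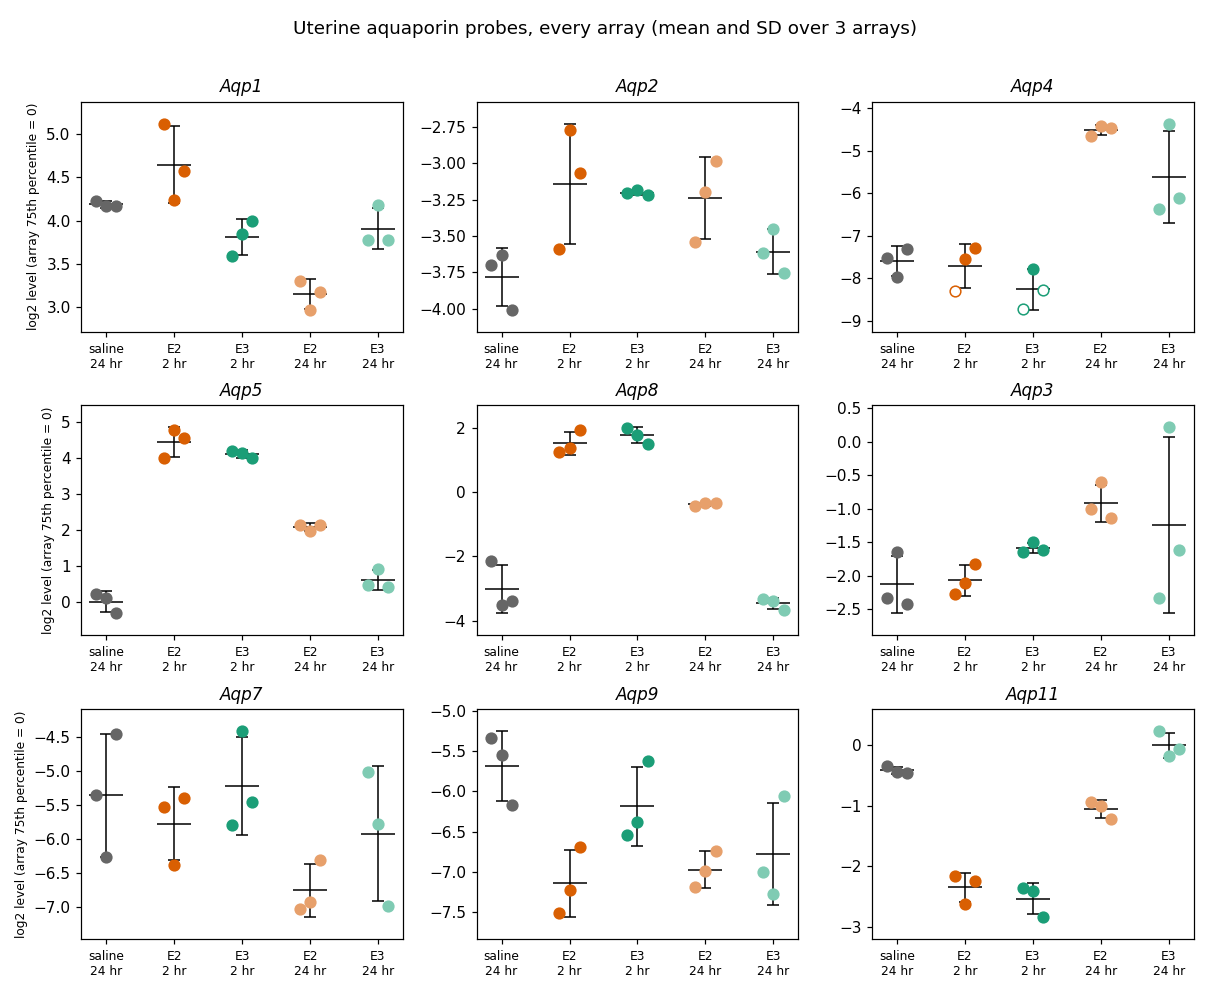
Level of each aquaporin gene on every array (brightest probe, log2 relative to the array's 75th percentile), with the mean and SD of 3 arrays per group, and open points for spots not well above background. Aqp5 and Aqp8 stood highest in both 2-hr groups, Aqp11 lowest there, and Aqp4 highest at 24 hr.

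Aqp5 and Aqp8 rose together at 2 hr and Aqp11 fell, with either hormone. The RefSeq sequences of the 250 bases before the start of these 3 genes (GRCm38.p6) are shown because these genes carry the 2-hr response. Capitals mark single arms of the estrogen response element (GGTCA or TGACC) and AP-1 sites (TGACTCA or TGAGTCA). The Aqp5 sequence is chr15:99590778-99591027 on the plus strand, that of Aqp8 is chr7:123462044-123462293 on the plus strand, and that of Aqp11 is chr7:97738248-97738497 on the minus strand.
Aqp5: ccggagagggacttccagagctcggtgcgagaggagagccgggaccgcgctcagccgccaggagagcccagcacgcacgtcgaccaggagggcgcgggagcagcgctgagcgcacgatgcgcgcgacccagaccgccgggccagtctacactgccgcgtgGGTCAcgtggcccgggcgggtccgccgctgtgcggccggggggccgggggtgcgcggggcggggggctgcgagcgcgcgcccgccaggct
Aqp8: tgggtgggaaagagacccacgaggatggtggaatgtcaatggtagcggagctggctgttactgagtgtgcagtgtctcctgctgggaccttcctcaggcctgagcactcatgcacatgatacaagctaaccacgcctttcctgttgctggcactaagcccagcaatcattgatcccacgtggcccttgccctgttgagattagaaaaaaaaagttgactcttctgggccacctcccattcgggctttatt
Aqp11: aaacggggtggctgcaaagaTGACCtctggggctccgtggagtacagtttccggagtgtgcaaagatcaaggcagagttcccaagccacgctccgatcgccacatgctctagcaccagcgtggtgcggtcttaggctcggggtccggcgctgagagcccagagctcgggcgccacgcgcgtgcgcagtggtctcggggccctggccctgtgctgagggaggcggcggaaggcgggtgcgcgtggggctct

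The Aqp5 window holds 1 such arm, which begins at -90 from the start, and 2 GC boxes (GGGCGG or CCGCCC, the Sp1 motif). The Aqp11 window holds 1 arm at -230, and the Aqp8 window has no match to any of the motifs searched. Single arms are common, with a match in 35.2% of the 32851 promoter windows of this length in the RefSeq table, against 5 of the 10 windows of the 8 aquaporin genes searched (Aqp4 was not searched). The 2 Aqp7 windows overlap and share 1 of these arms. By gene, 4 of the 8 held an arm. The full palindrome GGTCANNNTGACC, which contains both arms, was in 0 of the 10 windows and in 0.0639% of all windows. An AP-1 site was in 1 of the 10 (Aqp9) and in 4.46% of all windows. GC boxes were in 3 of the 10 (Aqp1, Aqp3, and Aqp5) and in 32.7% of all windows. Both strands were read. A match describes letters only.

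At 2 hr after E2, 2 of the 9 genes rose (Aqp5 and Aqp8) against 10.6% of all tested probes, and 1 fell (Aqp11) against 10.7%. At 2 hr after E3 the called genes were again Aqp5 and Aqp8 upward, where 4.68% of tested probes rose, and Aqp11 downward, where 9.11% fell. The 2 comparisons share their saline arrays. The median log2 change of the 9 genes was 0.06 for E2 and 0.14 for E3, beside -0.08 and -0.11 over all tested probes.

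Aqp5, the water channel of secretory epithelia, read 0.23, 0.11, and -0.31 on the 3 saline arrays. It read 3.99, 4.77, and 4.55 at 2 hr after E2 and 4.18, 4.14, and 3.98 at 2 hr after E3. All 6 arrays at 2 hr stood far above all 3 saline arrays, and the E2 and E3 arrays overlapped. The log2 fold change was 4.43 ± 0.20 (SE) for E2, a 21.5-fold rise with adjusted p = 1.11e-08, and 4.09 ± 0.20 for E3, a 17.0-fold rise with adjusted p = 3.38e-08 (limma). Within the slide that held saline replicate 3 and the 3 E3 arrays, the rise was 4.41, a value with no test. The 1 Aqp5 probe lies at 99579945 to 99580003 on chromosome 15 of the build named in the file headers (mm7). The Aqp2 probe lies upstream on the same strand, at 99567392 to 99568368, and the levels of that neighbor are given below.

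Aqp8, a channel known from liver, pancreas, and intestine, read -2.15, -3.52, and -3.38 on the saline arrays. At 2 hr it read 1.27, 1.39, and 1.95 after E2 and 2.02, 1.80, and 1.52 after E3. Again no 2-hr array came near a saline array, and the groups of the 2 hormones overlapped. The log2 fold change was 4.56 ± 0.30 for E2 (23.5-fold, adjusted p = 1.31e-07) and 4.80 ± 0.30 for E3 (27.8-fold, adjusted p = 1.89e-07, limma). Within the 1 slide shared with saline replicate 3 the E3 value was 5.16, with no test.

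Liver and pancreas transcripts were present on some arrays, and these are tissues in which Aqp8 is made. The summed signal of 16 exocrine pancreas markers, in multiples of the array's 75th percentile, was 1003 on E3 2-hr replicate 2, 443 on E2 24-hr replicate 2, 17.8 on E3 2-hr replicate 3, and 7.78 on E2 24-hr replicate 3, and at most 0.89 on each other array. Aqp8 on E3 2-hr replicate 2 (1.80) lay between the other arrays of its group, and so did Aqp8 on E2 24-hr replicate 2 (-0.35). Without these 2 arrays the log2 change was 4.79 for E3 at 2 hr and 2.64 for E2 at 24 hr, both still called. The liver markers, 12 genes, summed to 27.3, 8.97, and 7.35 on the saline arrays, to between 1.92 and 4.59 at 2 hr after E3, and to at most 0.82 on each remaining array. All 12 were well above background on the saline arrays, and 4 or 5 of the 12 at 2 hr after E2. Called lower than in saline at 2 hr were 11 of the 12 after E2, beside 10.7% of all tested probes, and 1 after E3, beside 9.11%. At 24 hr 11 of the 12 were called lower after E2, beside 11.1%, and 10 after E3, beside 1.96%. The array with the most liver signal had the highest Aqp8 in 2 of 5 groups, saline among them. The part of liver RNA in the saline level of Aqp8 was not tested.

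Aqp12, a pancreas aquaporin that is no member of the set, was highest on the 2 arrays with the most pancreas signal. It read -1.15 on E3 2-hr replicate 2 and -2.91 on E2 24-hr replicate 2. E3 2-hr replicate 3 was the other array well above background, at -7.42, and the remaining 12 arrays lay between -10.02 and -8.22. No comparison of Aqp12 was called, with adjusted p = 0.211 for E3 against saline at 2 hr (limma).

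**Figure D2:**
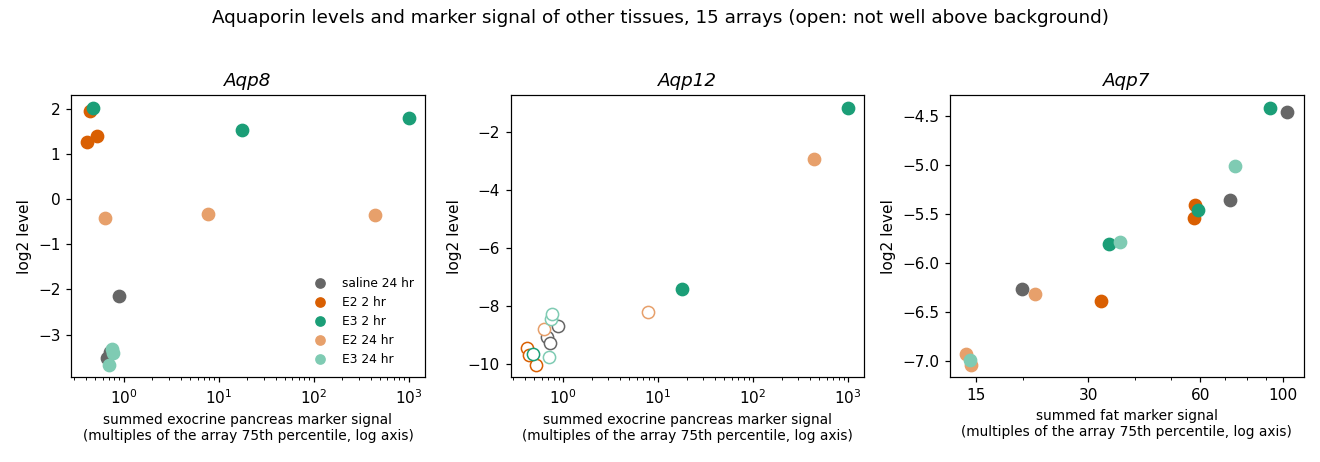
Level of Aqp8 and Aqp12 against the summed exocrine pancreas marker signal and of Aqp7 against the summed fat marker signal, 1 point per array, log axis for the marker signal, open points not well above background. Aqp8 lay with its own group at any pancreas signal, Aqp12 was raised on the 2 arrays with pancreas signal of 443 and 1003, and Aqp7 was higher where fat signal was higher.

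Aqp11, the intracellular aquaporin, fell at 2 hr with both hormones. Saline arrays read -0.35, -0.45, and -0.45. The E2 arrays read -2.17, -2.62, and -2.24 and the E3 arrays -2.36, -2.41, and -2.83, all below every saline array and overlapping each other. The gene fell by 1.93 ± 0.16 on the log2 scale after E2 (adjusted p = 6.33e-07) and by 2.12 ± 0.16 after E3 (adjusted p = 5.87e-07, limma), a 3.80-fold and a 4.34-fold decrease. On the slide shared with saline replicate 3 the E3 value was -2.08.

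The other 6 genes were not called at 2 hr. Aqp1, the endothelial and red cell channel, read 4.23, 4.17, and 4.17 in saline, 5.12, 4.25, and 4.58 after E2, and 3.59, 3.85, and 4.0 after E3, so that the E2 arrays lay above and the E3 arrays below the saline arrays without overlap. The changes were 0.46 ± 0.20 (adjusted p = 0.0599) and -0.38 ± 0.20 (adjusted p = 0.135, limma). Aqp2, the collecting duct channel and chromosomal neighbor of Aqp5, read between -4.01 and -3.63 in saline, between -3.59 and -2.77 after E2, and between -3.22 and -3.19 after E3. Its changes of 0.64 and 0.58 (adjusted p = 0.0124 and 0.0258, limma) stayed below 2-fold, whereas those of Aqp5 were 4.43 and 4.09. Aqp9 was lower after E2 by 1.46 ± 0.35 (adjusted p = 0.0029, limma) but missed the cutoff of 0.001 before adjustment, and its other 2 probes gave -0.39 (adjusted p = 0.403) and, where no E2 array was well above background, at least 1.19-fold lower (adjusted p = 0.064). An at-least fold sets the saline mean against the lowest signal well above background on the dim arrays, or the probe's own signal where that was higher. With normexp the brightest probe gave -0.62 (adjusted p = 0.537, limma). On the processed signal it was called, at -1.46 to -1.70, without E2 2-hr replicate 3, saline replicate 3, E3 2-hr replicate 3, or E3 24-hr replicate 3. Scaling by the 75th percentile of the probes well above background on all arrays also gave a call (-1.52, adjusted p = 0.00194, limma).

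At 24 hr the called genes were not the same for the 2 hormones. No slide held saline arrays together with 24-hr arrays of either hormone, so slide and treatment cannot be told apart in these comparisons. After E2, 3 of the 9 genes were higher than in saline (Aqp4, Aqp5, and Aqp8) against 6.93% of tested probes, and 1 was lower (Aqp1) against 11.1%. After E3, 1 gene was called higher (Aqp4) against 1.85% of tested probes, and 0 were lower against 1.96%, with 4 of the 9 at an unadjusted p under 0.05 and 3 at an adjusted p under 0.05 (limma), a level that 34.1% of tested probes reached. The median log2 change of the 9 genes was 0.54 after E2 and 0.17 after E3, beside -0.06 and -0.01 for all tested probes. All 9 genes had an adjusted p under 0.05 after E2, as did 61.4% of tested probes.

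**Figure D3:**
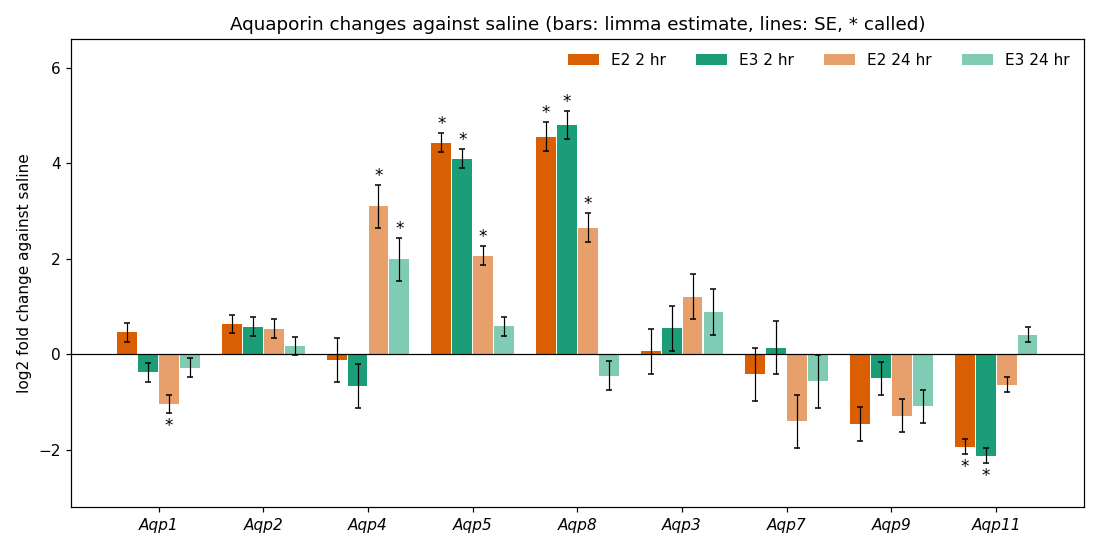
Log2 fold change of the 9 aquaporin genes against the 24-hr saline arrays, 4 treated groups of 3 arrays each, bars from 0, error lines SE of the limma fit, asterisks for p below 0.001 with at least 2-fold. The 2-hr bars of Aqp5 and Aqp8 lie between 4.09 and 4.80, and at 24 hr the E2 bars of both remain called while the E3 bars do not.

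Aqp5 at 24 hr read 2.12, 1.96, and 2.14 after E2 and 0.47, 0.91, and 0.40 after E3. All E2 arrays lay above all E3 arrays, and the E3 arrays lay just above the saline arrays. Against saline the log2 change was 2.07 ± 0.20 after E2 (4.18-fold, adjusted p = 4.47e-06) and 0.59 ± 0.20 after E3 (1.5-fold, adjusted p = 0.0412, limma), the latter not called. Compared with 2 hr the level fell by 2.36 after E2 and fell by 3.50 after E3. The order of its group levels was saline, E3 24 hr, E2 24 hr, E3 2 hr, and E2 2 hr, and the arrays of neighboring groups overlapped for the last pair alone.

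Aqp8 at 24 hr read -0.43, -0.35, and -0.33 after E2, an SD of 0.05, and -3.32, -3.41, and -3.67 after E3. The E2 arrays were well apart from both saline and E3, whereas the E3 arrays overlapped saline. The change against saline was 2.65 ± 0.30 after E2 (6.28-fold, adjusted p = 1.33e-05) and -0.45 ± 0.30 after E3 (adjusted p = 0.277, 95% interval -1.10 to 0.21, limma). From 2 to 24 hr it fell by 1.91 after E2 and fell by 5.24 after E3, the latter a 37.9-fold decrease.

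Aqp11 at 24 hr read -0.94, -1.01, and -1.22 after E2, below every saline array, and 0.23, -0.17, and -0.07 after E3, above every saline array. Neither was called against saline, at -0.64 ± 0.16 (adjusted p = 0.00358) and 0.41 ± 0.16 (adjusted p = 0.0587, limma). From 2 to 24 hr it rose by 1.29 after E2 and by 2.53 after E3. Its group levels ran E3 2 hr, E2 2 hr, E2 24 hr, saline, and E3 24 hr, with overlap between neighbors for the first pair alone.

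Aqp1 read 3.31, 2.97, and 3.18 at 24 hr after E2, below all arrays of the other 4 groups, and 3.77, 4.18, and 3.77 after E3, where 1 array overlapped saline. It fell by 1.04 ± 0.20 after E2 (2.05-fold, adjusted p = 6.49e-04, limma), and E3 gave -0.28 ± 0.20 (adjusted p = 0.299). The E2 call was lost without saline replicate 1 (-1.01, no longer under the cutoff of 0.001, adjusted p = 0.00302, limma) and without E2 24-hr replicate 2 (-0.95, below 2-fold). The summed signal of 9 endothelial markers was also lower at 24 hr after E2, 19.3 to 20.4 against 28.4 to 30.3 in saline, with a median log2 change of -0.52 and 1 of the 9 called lower, the same share as the 11.1% of all tested probes. The part of endothelial RNA in the Aqp1 change was not tested. For the red blood cell list the ranges overlapped, 17.1 to 53.7 against 21.7 to 59.0.

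Aqp4, the orthodox water channel of astrocytes and muscle, was near the floor in saline (-7.52, -7.98, and -7.30) and stood higher at 24 hr. After E2 it read -4.64, -4.42, and -4.45, and after E3 -6.36, -4.36, and -6.12. All 6 arrays lay above saline, but E3 replicate 2 stood apart from the other E3 arrays and reached the E2 level. The log2 change was 3.1 ± 0.45 after E2 (8.55-fold, adjusted p = 8.89e-05) and 1.99 ± 0.45 after E3 (3.96-fold, adjusted p = 0.00565, limma). The other 2 Aqp4 probes gave 3.33 and 3.25 after E2, both called, and 1.97 and 2.04 after E3, neither called.

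The E3 call for Aqp4 held without E2 2-hr replicate 1, E3 2-hr replicate 2, or E3 24-hr replicate 1 or 3, and was lost on leaving out any 1 of the other 11 arrays, among them E3 24-hr replicate 2, without which the change was 1.36 (adjusted p = 0.0106, limma). With normexp background correction in place of the processed signal neither hormone's change was called, at 1.52 (adjusted p = 0.0367) after E2 and 1.86 (adjusted p = 0.0371) after E3 (limma). Normexp was run with an offset of 50 intensity units added to every signal. The mean processed Aqp4 intensity was 19.8 in saline, and at 24 hr 161 after E2 and 83.6 after E3. At 2 hr the brightest Aqp4 probe differed from saline by -0.12 after E2 (adjusted p = 0.839) and by -0.66 after E3 (adjusted p = 0.25, limma). The other 2 probes were lower on the measured values, without a call. The probe of rank 2, well above background on 1 of 3 arrays after E2, gave -1.06 there (adjusted p = 0.172), and after E3, where no array was well above background, it was at least 1.52-fold lower (adjusted p = 0.0501, limma). The probe of rank 3 was not well above background on any array at 2 hr and was at least 1.26-fold lower after E2 (adjusted p = 0.0044) and at least 1.33-fold lower after E3 (adjusted p = 0.0586, limma). The skeletal muscle markers were partly higher at 24 hr as well. Their summed signal was 23.4 to 28.3 at 24 hr after E2 and 14.2 to 16.7 after E3 against 7.39 to 8.41 in saline, and 3 of the 8 tested were called higher after E2 (Acta1, Ckm, and Tnni2) against 6.93% of all tested probes, and 2 of the 8 after E3 (Myh2 and Tnni2) against 1.85%. The list's median log2 change was 0.98 after E2 and 0.85 after E3. The array with the most muscle signal was the array with the highest Aqp4 in 1 of 5 groups. The part of muscle RNA in the Aqp4 change was not tested.

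The aquaglyceroporins Aqp3, Aqp7, and Aqp9 were not called against saline in any group. Aqp3, a channel of basolateral epithelial membranes, read -2.32, -1.64, and -2.42 in saline, -1.01, -0.60, and -1.14 at 24 hr after E2, and -2.33, 0.22, and -1.62 at 24 hr after E3. The E2 arrays lay above saline (1.21 ± 0.48, adjusted p = 0.044, limma), while the E3 arrays spread over the whole range with replicate 2, the array that also stood apart for Aqp4, the highest. Without that array the E2 change kept its size of 1.21 and was called (adjusted p = 0.00112, limma), with the spread shared by all groups estimated without it. The 8 epithelial markers had a summed signal of 181 to 193 at 24 hr after E2 and 134 to 144 after E3 against 82.6 to 113 in saline, a median log2 change of 1.01 after E2 and 0.58 after E3, and 4 of the 8 called higher after E2 and 0 of the 8 after E3, beside 6.93% and 1.85% of all tested probes. Their part in the 24-hr values of Aqp3 and Aqp5 was not tested. At 2 hr Aqp3 lay between -2.27 and -1.82 after E2 and between -1.64 and -1.5 after E3.

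Aqp7, the glycerol channel of fat cells, varied widely within groups on its brightest probe. It read -5.35, -6.27, and -4.46 in saline, -5.54, -6.39, and -5.41 at 2 hr and -7.03, -6.93, and -6.31 at 24 hr after E2, and -5.80, -4.42, and -5.46 at 2 hr and -5.01, -5.79, and -6.98 at 24 hr after E3. The difference at 24 hr after E2 was -1.40 ± 0.55 (adjusted p = 0.0445, limma), and with normexp -0.61 (adjusted p = 0.593, limma). The other Aqp7 probe gave -1.85 there (adjusted p = 0.0296, limma), also without a call. On both probes every 24-hr E2 array lay below every saline array. The summed signal of 10 fat markers ranged from 14.1 to 103 over the arrays, and in 5 of 5 groups the array with the most fat signal was also the array with the highest Aqp7. At 24 hr after E2 the fat signal was 14.1 to 21.6, against 19.9 to 103 in saline. The part of fat RNA in the Aqp7 values was not tested.

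Aqp9, an aquaglyceroporin of liver and white blood cells, was dim throughout. Its brightest probe read -5.34, -5.55, and -6.18 in saline, between -7.51 and -6.70 at 2 hr and between -7.19 and -6.74 at 24 hr after E2, and between -6.54 and -5.63 at 2 hr and between -7.27 and -6.06 at 24 hr after E3. It was lower than saline by 1.28 ± 0.35 at 24 hr after E2 (adjusted p = 0.00658) and by 1.09 ± 0.35 at 24 hr after E3 (adjusted p = 0.0298, limma), without a call. Leaving out E3 24-hr replicate 3 made both calls, at -1.28 and -1.45, whereas with normexp the values were -0.49 (adjusted p = 0.67) and, with the sign turned, 0.70 (adjusted p = 0.408, limma). Of the other 2 Aqp9 probes, that of rank 2 had no array well above background at 24 hr after E2 and was at least 1.39-fold lower than in saline (adjusted p = 0.116), and that of rank 3, measured above background on 1 of 3 arrays, gave -0.77 (adjusted p = 0.0749, limma). After E3, where each was well above background on 1 of 3 arrays, they gave -0.43 (adjusted p = 0.424) and -0.48 (adjusted p = 0.314, limma). Saline, the group with the highest Aqp9, also had the highest liver signal, whereas the summed signal of 8 neutrophil markers was 0.68 to 8.83 in saline and 0.56 to 5.67 in the treated groups. The array with the most liver signal had the highest Aqp9 in 1 of 5 groups, and that with the most neutrophil signal in 2 of 5. The part of liver or neutrophil RNA in the Aqp9 values was not tested. Aqp2 at 24 hr read between -3.54 and -2.98 after E2 (0.54 ± 0.19, adjusted p = 0.0287) and between -3.75 and -3.45 after E3 (0.17 ± 0.19, adjusted p = 0.528, limma), and neighboring groups overlapped along its whole order of levels.

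The compounds were compared directly at the same dose, 9 genes at each of 2 times. At 2 hr 0 of the 9 genes were called between E3 and E2, where 7.37% of tested probes were, and 2 had an unadjusted p under 0.05 and an adjusted p under 0.05 (limma), the latter reached by 43.3% of tested probes. These were Aqp1, lower after E3 by 0.83 ± 0.20 (adjusted p = 0.00487), and Aqp9, higher after E3 by 0.96 ± 0.35 (adjusted p = 0.0415). The Aqp9 probe of rank 2, well above background on 1 of 3 E2 and 2 of 3 E3 arrays, gave 0.19 (adjusted p = 0.711), and that of rank 3, on 0 of 3 E2 arrays, was at least 1.10-fold higher (adjusted p = 0.131, limma). Without E2 2-hr replicate 2 the Aqp1 difference was -1.04 and was called. For the genes of the 2-hr response, E3 minus E2 was -0.34 for Aqp5 (95% interval -0.78 to 0.10), 0.24 for Aqp8 (-0.42 to 0.90), and -0.19 for Aqp11 (-0.53 to 0.15). With 3 arrays per group, differences of the size these intervals span could not be told from 0. The strain and the scan of the E2 arrays bear on every value at 2 hr and cannot be told apart from the compound.

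At 24 hr, where both hormones were given to the same strain and read on the same scanner but on slides that held 1 of the 2 groups each, 3 of the 9 genes were called between E3 and E2, against 4.85% of tested probes. Aqp8 was lower after E3 by 3.1 ± 0.30 (8.55-fold, adjusted p = 2.61e-05), and Aqp5 was lower by 1.48 ± 0.20 (2.79-fold, adjusted p = 2.01e-04). Aqp11 was higher after E3 by 1.05 ± 0.16 (2.07-fold, adjusted p = 3.39e-04, limma). The arrays of the 2 hormones did not overlap for any of these 3 genes. Slide and hormone cannot be told apart at this time. The Aqp11 difference is at the 2-fold limit, and its call was lost without E2 24-hr replicate 3 (0.97) or without E3 24-hr replicate 1 (0.93), and with normexp background correction, where it was just under 2-fold (1.00). Aqp1 was higher after E3 by 0.76 ± 0.20 (adjusted p = 0.0102, limma), below 2-fold.

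For the other 5 genes the 24-hr difference was not called. E3 minus E2 was -1.11 for Aqp4 (95% interval -2.09 to -0.13, adjusted p = 0.0742, limma), which became -1.73 and called without E3 replicate 2 and turned to 0.34 with normexp, a setting under which the median of all tested probes in this comparison moved from 0.06 to 0.44. It was -0.37 for Aqp2 (-0.79 to 0.05), -0.33 for Aqp3 (-1.37 to 0.72, and -1.06 without E3 replicate 2, adjusted p = 0.0124, limma), 0.83 for Aqp7 (-0.38 to 2.04), and 0.19 for Aqp9 (-0.56 to 0.95). The intervals of Aqp3, Aqp4, and Aqp7 are wide and include 2-fold differences.

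**Figure D4:**
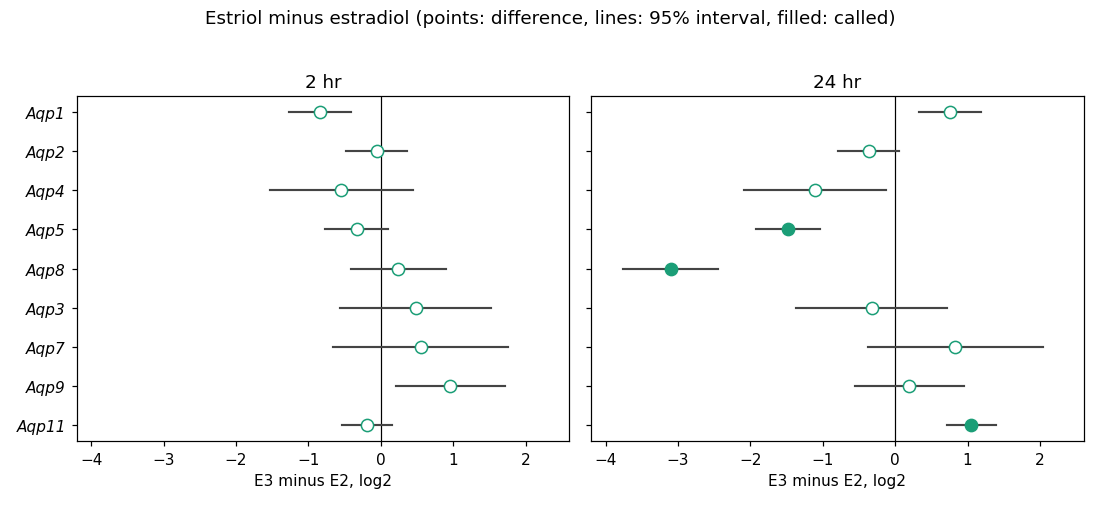
E3 minus E2 in log2 units for each aquaporin gene at 2 and 24 hr, points for the limma difference between 3 and 3 arrays, lines for the 95% interval, filled points called. No gene was called at 2 hr, and at 24 hr Aqp8 (-3.1) and Aqp5 (-1.48) were lower and Aqp11 (1.05) higher after E3.

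Whether the difference between the compounds itself changed with time was tested by the interaction, the E3 minus E2 difference at 24 hr minus that at 2 hr. It was called for 3 of the 9 genes, against 15.5% of tested probes. These were Aqp8 at -3.34 ± 0.43 (adjusted p = 8.44e-05), Aqp1 at 1.59 ± 0.28 (adjusted p = 6.69e-04), and Aqp11 at 1.24 ± 0.22 (adjusted p = 7.38e-04, limma). Aqp5 gave -1.14 ± 0.29 and missed the cutoff (adjusted p = 0.00623, limma), though it was called without E2 2-hr replicate 2 or E3 24-hr replicate 2. Between the times, 5 of the 9 genes were called after E2 (Aqp4 and Aqp11 higher and Aqp1, Aqp5, and Aqp8 lower at 24 hr) against 31.1% of tested probes, and 4 after E3 (Aqp4 and Aqp11 higher and Aqp5 and Aqp8 lower) against 16.1%. The rise of Aqp4 between the times was not called with normexp, at 1.56 after E2 (adjusted p = 0.0251) and 2.04 after E3 (adjusted p = 0.00799), nor after E3 with only the groups compared in the fit (2.65, adjusted p = 0.00995, limma). The 2-hr side of these values rests on 2 of 3 E2 arrays and 1 of 3 E3 arrays well above background.

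The genes whose level followed each called aquaporin most closely over the 15 arrays were found among 18451 named genes. For Aqp5 they were Got1, Bag2, and Gm22 (Pearson r = 0.99 for each), and for Aqp8 they were Eef1e1, Nppc, and Ramp3 (0.99 for each). The closest to Aqp11 were Dyx1c1, 1190002J23Rik, and Sft2d2 (0.99 for each). Aqp4 was followed by Sprr2d (0.96), Hrasls (0.96), and Rptn (0.95), the first and last of them genes of the cornified epithelial envelope, and Aqp1 by Gm1533 (0.95), Igf2 (0.93), and Bmpr2 (0.93). The points share their 5 groups, so these values describe like patterns over treatment.

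Water follows salt, and 18 genes for ion channels, pumps, exchangers, and their regulators were read beside the aquaporins. All 18 were on the array and tested. At 2 hr 3 of the 18 were higher and 1 lower after either hormone, beside 10.6% higher and 10.7% lower of all tested probes for E2 and 4.68% and 9.11% for E3. Of the higher genes, 2 are described here. Sgk1, the kinase that raises epithelial sodium transport, rose by 2.31 after E2 and 2.43 after E3. Car12, a membrane carbonic anhydrase, rose by 1.04 after E2 and 1.30 after E3. Cftr, the chloride channel, fell by 1.10 and 1.09.

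At 24 hr 6 of the 18 were higher and 3 lower after E2, beside 6.93% and 11.1% of all tested probes, and 3 were higher and 0 lower after E3, beside 1.85% and 1.96%. After E2, Car12 (3.85), Car2 (2.66), Clca3 (2.63), Cftr (1.77), Fxyd3 (1.36), and Slc9a3r1 (1.21) rose, and the 3 subunits of the epithelial sodium channel fell, Scnn1a by 1.58, Scnn1b by 1.34, and Scnn1g by 2.05. After E3 the called genes were Clca3 (2.10), Car12 (1.63), and Car2 (1.04). Between the compounds at 24 hr 3 were lower after E3 (Car12 by 2.23, Car2 by 1.63, and Cftr by 1.41) and 1 was higher (Scnn1g by 2.28). Of all tested probes, 4.85% were called between the compounds at this time, in either direction. The median log2 change of the list at 24 hr was 0.40 after E2 and 0.26 after E3. Cftr fell while Aqp5 and Aqp8 rose at 2 hr, and at 24 hr after E2 it was raised together with them. The part of the epithelial marker signal, given above beside Aqp3, in these changes was not tested.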

How the data were processed

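RNA from 15 uteri or uterine pools was labelled with Cy3 and hybridised to one-color arrays. The authors extracted the signals with Agilent Feature Extraction (9.5 in the submitters' processing notes, 9.5.3.1 per the file headers), and the deposited values are processed intensities, background subtracted and detrended within each array but not normalized between arrays. The series table holds the same intensities. Per-spot flags for outliers, saturation, and signal well above background were used.

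With R 4.3.3, limma 3.58.1, and version 1.17.8 of the data.table package, 1893 outlier-flagged spots were dropped (744 missing probe values), spots of a probe were averaged, and each array was scaled by its own 75th percentile on the log2 scale, a step that assumes few probes change. That percentile was 2989 to 4412 intensity units. Of 41174 probes, 34776 (84.5%) were well above background on at least 2 of 3 arrays of a group and were tested with limma over all 5 groups (10 residual and 2.06 prior degrees of freedom), with Benjamini-Hochberg adjustment over all tested probes. Precision is limited by having 3 arrays per group. A gene with several probes was represented by the one with the highest mean. All 9 genes matched RefSeq by accession, through 13 of 14 probes. Genes named were the members, the called genes of the transport list with 1 exception, the 3 genes most like each called member, and, chosen after their values were seen, 3 aquaporins outside the set and the called muscle markers. The marker and transport lists and the members were chosen with earlier results of these data known. Marker signal is the sum of linear signals divided by the 75th percentile. No 2 arrays were identical. Replicate numbers did not pair arrays (correlation of deviations of same-numbered arrays -0.47 to 0.55). Arrays lay on 7 slides. Alternatives were other background correction (normexp with an offset of 50), scaling, filters, cutoffs, probes, sample sets, and slide or replicate as a block. The values of that 1 transport gene are not reported here, though its calls are in the counts. Promoters came from the RefSeq table (GRCm38.p6), and figures were drawn with Python and matplotlib.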

Additional observations from a re-analysis of the deposited data

Results flagged for a closer look

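For 3 aquaporin genes the difference between estriol and estradiol was not the same at the 2 times, by the interaction test of limma. Aqp8 gave -3.34, with E3 minus E2 at 0.24 at 2 hr and at -3.1 at 24 hr. Aqp1 gave 1.59, being lower after E3 at 2 hr (-0.83) and higher at 24 hr (0.76), and Aqp11 gave 1.24. Each rests on the 2-hr E2 arrays, whose strain and scan cannot be told apart from the compound. The groups of 3 arrays were too small for a search for single outlying arrays.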

How the results depend on the processing

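The counts of called genes were within 1.5 times of those reported under most alternatives, and the exceptions beyond leaving out single arrays concern 24 hr. With an adjusted p below 0.05 and 2-fold as the cutoff, 7 genes were called for E2 against saline at 24 hr and 2 for E3. For E3 against saline at 24 hr, 0 genes were called (Aqp4 was lost) with normexp, with a mean signal over 100, with only the groups compared, without the E2 2-hr arrays, with the probe of rank 2 or rank 3, and, in an alternative chosen after seeing the data, without the 2 arrays with most pancreas signal. Under the mean signal filter the Aqp4 probes were not tested, and elsewhere the cause was not tested. Leaving out 1 array at a time gave 3 to 4 genes for E2 at 2 hr, 3 for E3 at 2 hr, 3 to 5 for E2 at 24 hr, 0 to 2 for E3 at 24 hr, 0 to 1 for E3 against E2 at 2 hr, 2 to 4 at 24 hr, 5 to 6 for E2 and 4 for E3 between the times, and 3 to 4 for the interaction. Normexp reversed 2 values that were not called, Aqp4 for E3 against E2 at 24 hr (0.34) and Aqp9 for E3 against saline at 24 hr (0.70), and ended the calls of Aqp4 between the times (1.56 after E2 and 2.04 after E3). It also moved the median of all probes upward by 0.32 to 0.37 in the comparisons with E3 at 24 hr. Leaving out the 2 pancreas arrays also ended the Aqp1 call at 24 hr after E2 (-0.95). The samples share only a replicate number, and the fit with the replicate block gave the same counts, from 0 for E3 against E2 at 2 hr to 5 for E2 between the times. The fit with slide as a random block (correlation -0.01) gave the same counts too. Only 1 slide held arrays of more than 1 group, saline replicate 3 with the 3 E3 2-hr arrays. In every other comparison, those with saline at 24 hr among them, slide and treatment cannot be told apart, and that fit cannot separate them. The changes of Aqp5 and Aqp8 against saline at 2 hr and after E2 at 24 hr, and of Aqp11 at 2 hr, kept their call under every alternative that gives a test. Values near -8 on the log2 scale, as for Aqp4 and Aqp9, are limited by signal over background.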

Other observations

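Other family members were on the array outside the set. Mip, the lens aquaporin, was well above background on 0 of 3 arrays in every group. Aqp6, which lies next to Aqp5 on chromosome 15, was well above background on 2 of 3 arrays in saline and at 2 hr after E2 and on 1 of 3 arrays in each other group, and spots of it carried outlier flags, so no group order is given.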
